A study of Macaca fascicularis with 5 samples.

Results

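The genes described here are 10 genes of microglia and of the complement system that tags synapses for removal. They are the C1q chains C1QA, C1QB and C1QC, the complement protein C3, the receptors CSF1R, CX3CR1, P2RY12 and ITGAM, and the microglial proteins AIF1 and TYROBP. They were taken by exact gene symbol from a table of 20576 symbols, and all 10 were found, with 20 of the 62655 transcripts listed. Transcripts of a symbol were summed to a gene total in each library. The RNA came from the dorsal lateral geniculate nucleus (dLGN), the thalamic relay between the retina and the visual cortex, of 5 cynomolgus monkeys, with 1 library per animal. In the control group the 3 animals were untreated (Control-307, Control-317 and Control-331). In the deprived group the left eyelid of 2 animals had been sutured from 1 month of age (Deprivated-316 and Deprivated-326). All animals were 3 months old by the labels, while the methods of the study place collection 3 months after the suture. Both deprived libraries are from the left dLGN, on the side of the sutured eye, and the titles place Control-317 on the left and the other controls on the right. The descriptions of the control libraries say instead that the tissue of both sides was mixed, and those of the deprived libraries that the right side was dropped for its quality.

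Microglia are the resident macrophages of the brain. In the developing dLGN of the mouse they engulf weak synapses of retinal axons, and competition between the eyes shapes which inputs are lost. C1q binds to synapses and starts the classical complement cascade, which deposits fragments of C3. Microglia recognise these fragments with complement receptor 3, whose alpha chain is ITGAM (CD11b) and whose beta chain is ITGB2. CX3CR1 is the microglial receptor for the neuronal chemokine CX3CL1. P2RY12 senses extracellular nucleotides and guides the processes of microglia, and CSF1R carries the survival signal of CSF1 and IL34. TYROBP (DAP12) is the signalling adaptor of TREM2 and related receptors, and AIF1 (IBA1) is an actin-binding protein widely used to stain microglia.

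The control libraries held 9424975 to 12966019 estimated counts in all, and the deprived ones 7607859 and 7391844. Gene totals of the 10 genes ran from 46 counts (TYROBP in Deprivated-316) to 4538 counts (C3 in Control-331). Across the genes tested, Control-317 was the least like its group, with r = 0.849 and 0.872 of log2 CPM to the other controls, which shared 0.952 between them (a correlation over genes, which are not independent). CPM are counts scaled to a common TMM-normalized library total. The labels and the group means printed with the study do not divide the libraries in the same way. Of the 10 ways to divide 5 libraries into 3 and 2, the division with Control-317 and Deprivated-316 exchanged gave all 310 printed transcript means that could be read, and the deposited labels gave 20. Values are listed in the order of the libraries given above. The comparisons follow the labels, and each list is also given under the exchanged division, with the named genes that turned in sign there or passed without Control-317.

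All 10 genes were detected in every library. On the FPKM scale, which corrects for length and was summed over the transcripts of a gene, C3 was the most abundant in the control libraries, with a level of 44.1 ± 8.69 FPKM (SD, n = 3). P2RY12 followed at 26.3 ± 10.4, CSF1R at 25.5 ± 1.76, CX3CR1 at 23.2 ± 1.82 and C1QB at 20.7 ± 7.29 FPKM (SD, n = 3 each). TYROBP had 15.3 ± 2.47, C1QC 14.7 ± 4.75, C1QA 12.95 ± 4.42, AIF1 11.5 ± 5.55 and ITGAM 2.92 ± 0.518 FPKM (SD, n = 3 each). The lowest control value of C3 (37.6 FPKM) lay above the highest of P2RY12 (34.2 FPKM), and the highest of ITGAM (3.48 FPKM) lay below the lowest of AIF1 (5.49 FPKM). From P2RY12 to AIF1 the neighbours in this order overlapped. C3 ranked above 93.7% of the tested genes by its mean FPKM in the control libraries, and ITGAM above 32.7%.

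All 10 genes had lower fitted levels in the deprived group, with a median log2 fold change of -0.70, against -0.06 over all 14317 genes tested. With all 5 libraries, no gene of the 10 was called by edgeR's quasi-likelihood test with Benjamini-Hochberg adjustment over all genes (adjusted p of 0.464 to 0.749), and 0.0% of all genes passed it. The exact test of edgeR and DESeq2 called none of the 10 either, with 0.189% and 0.443% of all genes called as lower. An unadjusted p under 0.05 was reached by C1QA, C3 and TYROBP, while 4.07% of all genes were lower at that level. The deprived libraries both lay below every control library for 7 of the 10 genes, and for 15.6% of all genes tested, while the groups did not overlap in either direction for 30.8%. A log2 fold change below 0 was found for 55.1% of all genes. With 3 libraries against 2, the smallest p of an exact two-sided rank test is 0.2. In bulk tissue, fewer microglia and less of these RNAs per microglial cell cannot be told apart.

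**Figure D1:**
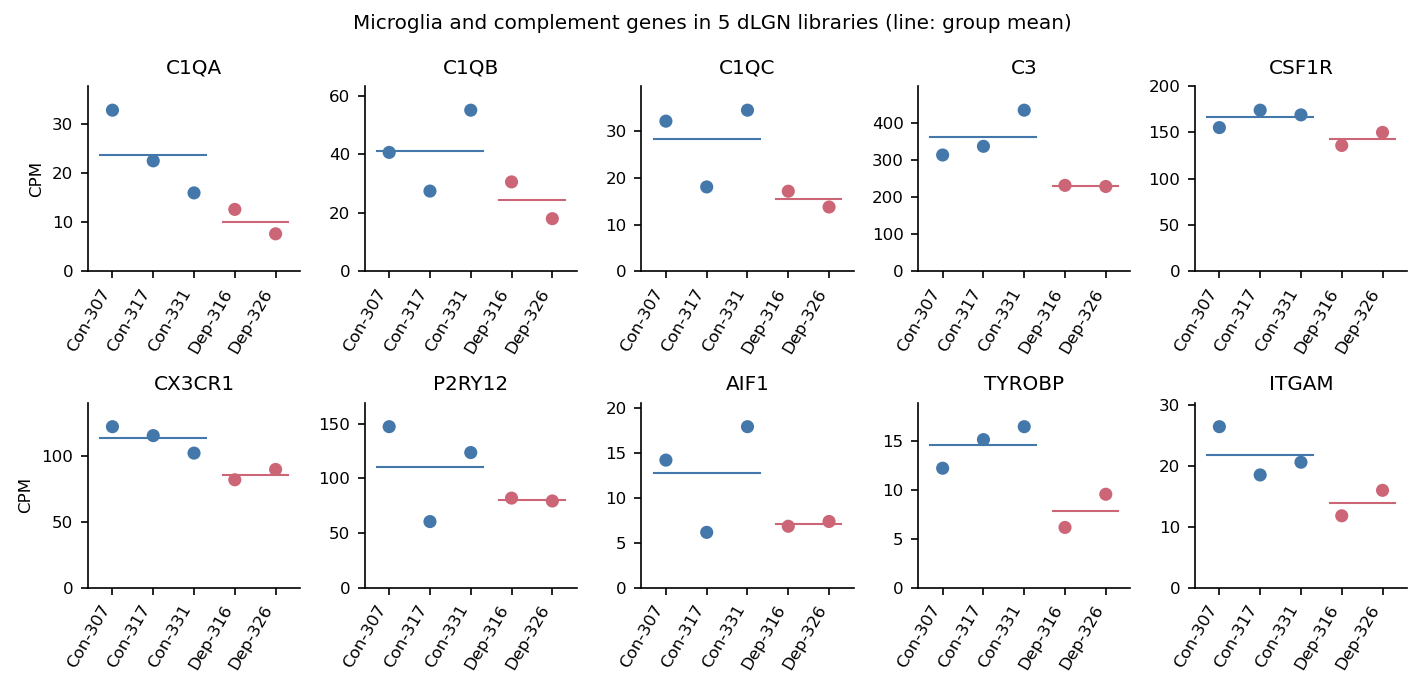
CPM of each of the 10 genes (vertical axis, from 0) in the 5 libraries (horizontal axis, Con for control in blue, Dep for deprived in red), with a line at each group mean. Both deprived points lie below all control points for 7 genes, and Control-317 lies at or below the deprived points for P2RY12 and AIF1.

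Among the C1q chains, which assemble into a single protein, C1QA showed the largest difference of the 10 genes with all 5 libraries. TYROBP did so without Control-307 (-1.01) or without Deprivated-326 (-1.23), and AIF1 under the exchanged division (-0.94). C1QA was at 32.8, 22.5 and 16.0 CPM in the control libraries, against 12.6 and 7.64 CPM after deprivation. The groups did not overlap, but the range among the control libraries was wider than the gap between the group means (edgeR log2 fold change -1.23 ± 0.42 SE, adjusted p = 0.464). C1QC had 32.2, 18.1 and 34.5 CPM in the control libraries and 17.2 and 13.8 CPM in the deprived libraries, in the same order. Its Control-317 value was close to that of Deprivated-316 (edgeR log2 fold change -0.87 ± 0.36 SE, adjusted p = 0.520). C1QB had 40.7, 27.5 and 55.1 CPM in the control libraries and 30.6 and 18.02 CPM in the deprived libraries. Here the groups overlapped, since Control-317 lay below Deprivated-316 (edgeR log2 fold change -0.76 ± 0.40 SE, adjusted p = 0.589). In the reference annotation of another macaque assembly these genes stand next to each other in the order C1QB, C1QC, C1QA.

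The ratio of the chains was steadier for C1QB and C1QC than for C1QA. The log2 ratio of C1QB to C1QC, in FPKM, was 0.29, 0.56 and 0.63 in the control libraries and 0.78 and 0.34 in the deprived libraries. That of C1QA to C1QB was -0.18, -0.16 and -1.66 in the control libraries and -1.15 and -1.11 in the deprived libraries. The low C1QA share in Control-331 therefore lay beyond both deprived values, and the groups overlapped for both ratios.

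C3, the protein on which all complement pathways converge, was at 313, 337 and 434 CPM in the control libraries against 232 and 229 CPM after deprivation. The groups did not overlap, and the deprived animals were nearly equal (edgeR log2 fold change -0.65 ± 0.23 SE, adjusted p = 0.478). Relative to the mean log2 CPM of the other 9 genes, C3 stood at 2.84, 3.45 and 3.37 in the control libraries and at 3.23 and 3.26 in the deprived libraries. On this measure the deprived values lay within the control range.

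ITGAM, the alpha chain of the receptor for C3 fragments, had 26.4, 18.5 and 20.6 CPM in the control libraries and 11.8 and 16.0 CPM in the deprived libraries. The groups did not overlap (edgeR log2 fold change -0.65 ± 0.28 SE, adjusted p = 0.537). In the reference annotation ITGAM overlaps pseudogenes and C3 overlaps a long non-coding RNA gene. The strand setting of the counting is not given in the sources used here. The totals of ITGAM and C3 may therefore hold reads of those genes.

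The receptors CSF1R and CX3CR1 varied least. CSF1R was at 155, 174 and 169 CPM in the control libraries against 136 and 150 CPM after deprivation. The groups did not overlap, but the highest deprived value was near the lowest control value (edgeR log2 fold change -0.22 ± 0.18 SE, adjusted p = 0.738). CX3CR1 was at 123, 116 and 103 CPM in the control libraries against 82.2 and 90.1 CPM after deprivation, again without overlap (edgeR log2 fold change -0.40 ± 0.19 SE, adjusted p = 0.554). From the lowest to the highest library, log2 CPM of CSF1R spanned 0.36 and of CX3CR1 0.58, whereas C1QA spanned 2.07.

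P2RY12 and AIF1 were both lowest in Control-317. P2RY12 reached 147 and 123 CPM in Control-307 and Control-331, 60.5 CPM in Control-317, and 81.9 and 79.3 CPM after deprivation. Both deprived libraries lay between Control-317 and the other controls, so the groups overlapped (edgeR log2 fold change -0.45 ± 0.40 SE, adjusted p = 0.749). P2RY12 lies inside MED12L, a Mediator subunit gene, in the reference annotation. MED12L was at 38.9, 26.1 and 40.8 CPM in the control libraries against 105 and 58.6 CPM after deprivation, so it was higher in the deprived libraries where P2RY12 was not. Whether reads were divided correctly between these genes was not tested.

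On the log2 scale, AIF1 showed the widest spread of the 10 genes within the control group. It had 14.2 and 17.9 CPM in Control-307 and Control-331, 6.16 CPM in Control-317, and 6.84 and 7.37 CPM in the deprived libraries (edgeR log2 fold change -0.84 ± 0.50 SE, adjusted p = 0.629). TYROBP did not share this pattern, with 12.2, 15.1 and 16.5 CPM in the control libraries and 6.17 and 9.55 CPM in the deprived libraries. Its groups did not overlap, and Control-317 lay within the other control values (edgeR log2 fold change -0.89 ± 0.32 SE, adjusted p = 0.485).

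The C1q chains were also compared with the surface receptors within each library. The mean log2 CPM of C1QA, C1QB and C1QC minus that of CSF1R, CX3CR1 and P2RY12 was -2.0, -2.25 and -2.04 in the control libraries and -2.36 and -3.02 in the deprived libraries. The groups did not overlap, but Deprivated-316 lay near Control-317. The mean of all 10 genes was 5.73, 5.29 and 5.73 log2 CPM without deprivation and 4.95 and 4.91 with it.

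Several of these results changed when Control-317 was left out. Without it, C1QC, P2RY12 and AIF1 passed edgeR's quasi-likelihood test, with log2 fold changes of -1.11, -0.75 and -1.17 and adjusted p of 0.0324, 0.0386 and 0.0483. The median of the 10 genes was then -0.81. Of 14009 genes tested, 515 (3.68%) passed as lower and 905 passed as higher. The controls that remained carry a right-side title and the deprived libraries a left-side title, so condition and side cannot be told apart in that comparison. The same comparison called 7 of 8 markers of striatal neurons, which are foreign to the dLGN, as lower. The part of tissue makeup in these calls was not tested. With side by title as a covariate, which sets Control-317 alone against the deprived libraries, 8 of the 10 genes remained on the lower side with a median of -0.35. P2RY12 and AIF1 then had log2 fold changes of 0.41 and 0.20, and none of the 10 passed (edgeR adjusted p of 0.174 to 0.786), with 1.45% of all genes passing as lower.

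Under the division of the libraries that the printed means follow, 7 of the 10 genes were on the lower side, with a median of -0.32. CSF1R, CX3CR1 and TYROBP turned to 0.08, 0.01 and 0.09, and C1QA had -0.43. Not 1 of the 10 was called in that division by edgeR (adjusted p of 0.698 to 0.994), and 0.0% of all genes passed as lower.

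**Figure D2:**
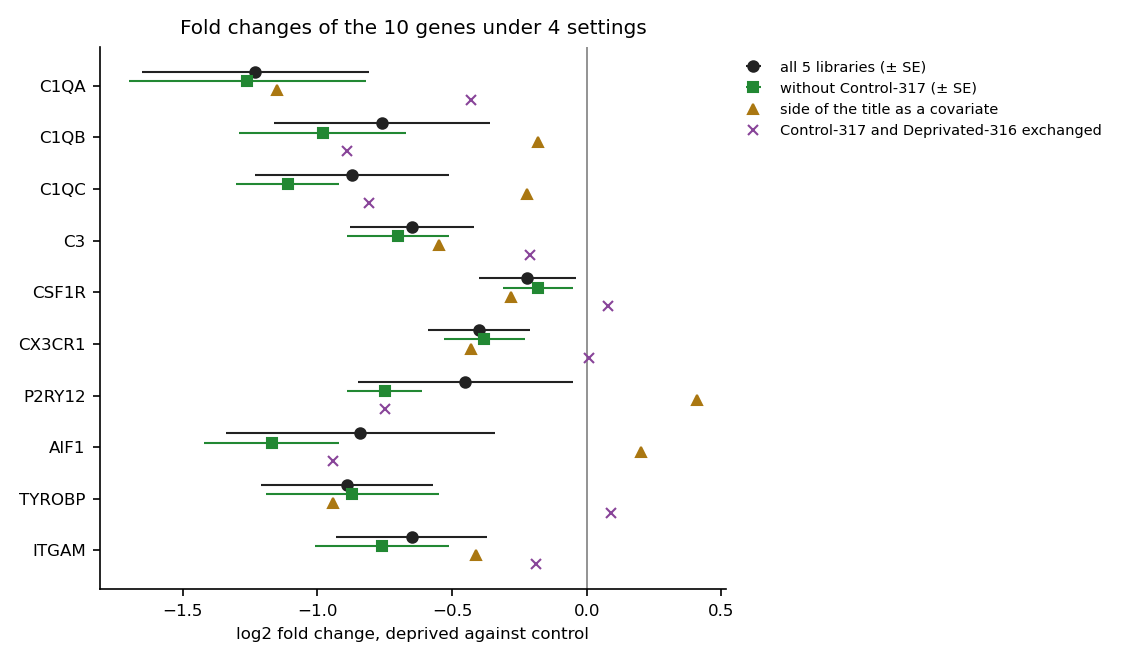
Fitted log2 fold change of each gene, deprived against control (horizontal axis), with all 5 libraries (circles) and without Control-317 (squares), bars giving 1 standard error, and with side as a covariate (triangles) and under the exchanged division (crosses), shown without bars. All circles and squares lie left of 0, P2RY12 and AIF1 lie right of it with side as a covariate, and CSF1R, CX3CR1 and TYROBP lie at 0.01 to 0.09 under the exchanged division.

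The gene totals were made up of 20 listed transcripts, of which 18 could be tested. None passed edgeR's quasi-likelihood test over 33469 transcripts, of which 0.0% passed, and 2 had an unadjusted p under 0.05 (6.41% of all transcripts). These were the C1QA variant X1 and the only C3 transcript, with log2 fold changes of -1.26 and -0.69 (edgeR adjusted p of 0.778 and 0.686). C1QB, C3 and AIF1 were each listed with 1 transcript.

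The low P2RY12 total of Control-317 came from a particular variant. The curated P2RY12 transcript was estimated at 857, 27.6 and 566 counts in the control libraries, against 254 and 271 counts after deprivation. It made up 3.65% of the P2RY12 total in Control-317 and 41.6% to 60.3% in the other libraries. Variant X2 showed no such gap, with 54.2, 58.3 and 69.0 CPM in the control libraries and 46.8 and 38.4 CPM in the deprived libraries. For variant X2 alone the groups did not overlap (edgeR log2 fold change -0.54 ± 0.24 SE, adjusted p = 0.806 over all transcripts).

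C1QC was likewise divided unevenly. Its variant X2 held 26.5%, 40.7% and 2.15% of the total in the control libraries and 19.2% and 12.8% in the deprived libraries. The variant X1 of CSF1R was at 0 counts in Control-307 and Control-317 and at 8.82 to 26.7 counts in the other libraries, which is at most 2.43% of the CSF1R total. TYROBP was carried mostly by variant X2, at 70.2% to 86.1% of its total. Estimates for variants that share exons depend on how the reads were assigned to them, more than the gene totals do.

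**Figure D3:**
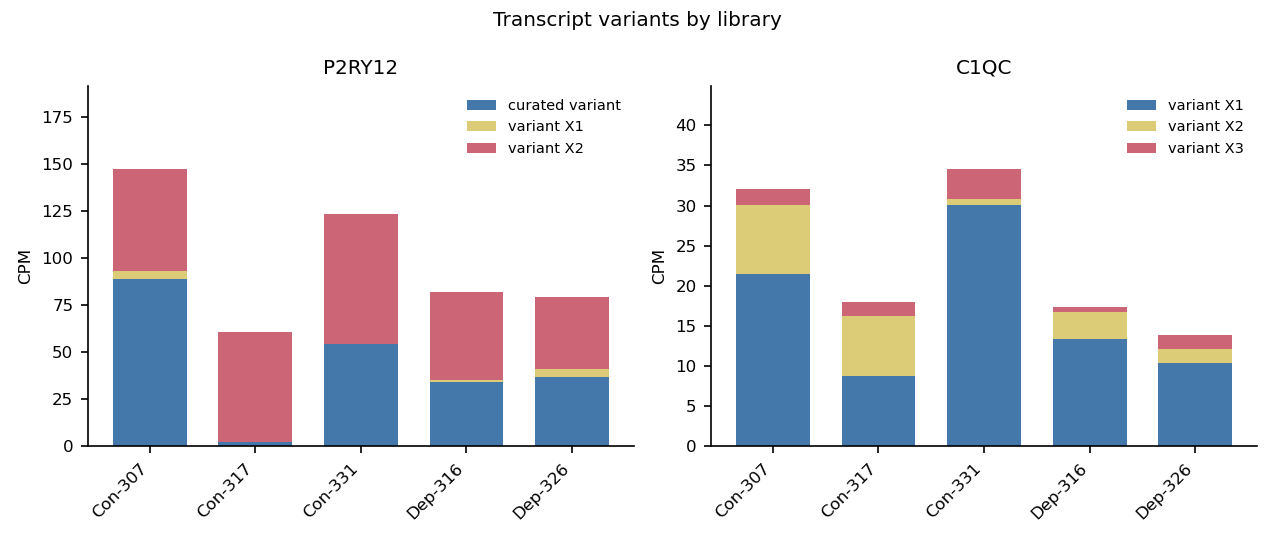
Stacked CPM of the transcript variants of P2RY12 and C1QC (vertical axis, from 0) in the 5 libraries (horizontal axis). The curated P2RY12 variant nearly vanishes in Control-317, at 3.65% of the total, while variant X2 of C1QC takes from 2.15% to 40.7% of the total among the control libraries.

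Other microglial genes were mostly on the lower side as well. Of 21 further markers, 18 could be tested, and 16 of these had a log2 fold change below 0, with a median of -0.47. No marker was called by edgeR (adjusted p of 0.249 to 1.00). At an unadjusted p under 0.05, 3 were lower and 1 higher, while 4.07% of all genes were lower at that level. Both deprived libraries lay below all control libraries for 7 of the 18, and for 15.6% of all genes tested. SELPLG, a selectin ligand, had a log2 fold change of -0.65 and TLR2, an innate immune receptor, one of -1.32. Without Control-317 SELPLG passed (edgeR adjusted p = 0.0434). In the exchanged division 14 of the 18 were lower, with a median of -0.45.

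The low values of Control-317 were shared by further genes of resting microglia. P2RY13, a nucleotide receptor encoded beside P2RY12, was at 8.64 CPM in Control-317 and at 19.8 and 20.6 CPM in the other control libraries. GPR34, a lipid receptor, was at 8.72 CPM against 37.3 and 32.0 CPM, and TMEM119, a membrane marker of microglia, was at 2.88 CPM against 10.04 and 7.56 CPM. Control-317 was the lowest of all 5 libraries for 6 of the 18 further markers, for P2RY12 and AIF1 among the 10 genes, and for 29.5% of all genes tested. GPR34 passed as lower without Control-317 (edgeR adjusted p = 0.0470). TMEM119 had a log2 fold change of 0.44 by the labels and -0.71 under the exchanged division. These genes were picked after their values were seen.

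Complement genes outside the 10 went in both directions. C1R and C1S, the proteases that C1q activates, were on the higher side by the labels. C1R was at 1.66, 6.24 and 2.68 CPM in the control libraries against 18.6 and 11.5 CPM after deprivation (edgeR log2 fold change 2.08 ± 0.61 SE, adjusted p = 0.416). C1S was at 3.00, 6.16 and 8.90 CPM in the control libraries against 16.2 and 13.7 CPM after deprivation (edgeR log2 fold change 1.31 ± 0.48 SE, adjusted p = 0.491). The groups overlapped for neither protease. Without Control-317 C1R passed (edgeR adjusted p = 0.0264), where 905 of 14009 genes passed as higher. Under the exchanged division the log2 fold changes of C1R and C1S were only 0.22 and 0.08. C2, the next protease of the classical pathway, was at 6.72 to 7.08 CPM in the control libraries against 4.69 and 5.46 CPM after deprivation. Of 17 listed components 8 could be tested, with 3 higher, 5 lower and a median of -0.29. Without Control-317, where CFB could not be tested, the median of the 7 that remained was 0.22. The median of the 8 was 0.36 under the exchanged division. CFB, of the alternative pathway, reached 9.04 CPM in Control-317 and at most 1.23 CPM in the other libraries, and its log2 fold change of -2.13 turned to 2.86 under that division. Of the terminal components, C7 was at 3.76 to 9.84 CPM and C5 at 0.765 to 2.59 CPM, C6, C8A, C8B, C8G and C9 were listed at or below 0.320 CPM in every library, and the initiating protease MASP2 was listed at 0 in all of them.

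Inhibitors of complement went in both directions. The neuronal membrane proteins CSMD1 and CSMD2 were on the higher side. CSMD1 was at 111, 196 and 131 CPM in the control libraries against 371 and 274 CPM after deprivation (edgeR log2 fold change 1.14 ± 0.31 SE, adjusted p = 0.390). SRPX2, a secreted C1q inhibitor at synapses, was at 0, 0.160 and 0.0957 CPM in the control libraries against 2.68 and 1.501 CPM after deprivation, from very few reads. Of 13 tested inhibitors 7 were higher and 6 lower, and their median of 0.02 turned to -0.02 with another scaling and to -0.06 under the exchanged division. CSMD1 was among the 2 inhibitors that passed as higher without Control-317 (edgeR adjusted p = 0.0230), where 905 of 14009 genes passed as higher. Its log2 fold change was 0.20 under the exchanged division, where CSMD2 turned from 1.23 to -0.14 and SRPX2 was also on the lower side.

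All 6 tested complement receptors were on the lower side, with a median log2 fold change of -0.53. C3AR1, the receptor of the C3a fragment, was at 10.5, 7.84 and 10.8 CPM in the control libraries against 3.89 and 4.50 CPM after deprivation (edgeR log2 fold change -1.21 ± 0.33 SE, adjusted p = 0.390). It passed without Control-317 (edgeR adjusted p = 0.04997). C5AR1, the receptor of C5a, and ITGB2, the beta chain that pairs with ITGAM, had log2 fold changes of -0.54 and -0.53. CD93, a receptor of endothelial and myeloid cells, had one of -0.82. With the exchanged division 4 of the 6 were lower, with a median of -0.15, C3AR1 at -0.44 and CD93 turned to 0.09. None of these lists held a gene that passed edgeR's test with all 5 libraries.

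The partners of the receptors went in both directions. CX3CL1, the ligand of CX3CR1 that neurons display, was at 85.5, 44.5 and 89.2 CPM in the control libraries against 196 and 152 CPM after deprivation. Its groups did not overlap, in the opposite direction to CX3CR1 (edgeR log2 fold change 1.25 ± 0.35 SE, adjusted p = 0.398). Without Control-317 CX3CL1 passed (adjusted p = 0.0298), and under the exchanged division it had a log2 fold change of -0.33. The ligands of CSF1R, CSF1 and IL34, had log2 fold changes of 0.94 and 0.30, and their groups overlapped. TREM2, a lipid receptor that signals through TYROBP, was at 12.5, 8.64 and 8.80 CPM in the control libraries against 5.36 and 5.19 CPM after deprivation (edgeR log2 fold change -0.92 ± 0.33 SE, adjusted p = 0.480). FCER1G, an adaptor akin to TYROBP, and the kinase BTK had log2 fold changes of -1.32 and -0.89. SYK, the kinase that binds the phosphorylated adaptors, had one of 0.05. Of 10 tested partners 5 were higher and 5 lower, with a median of -0.12. The exchanged division gave 8 lower and a median of -0.28, and IL34 turned to -0.14.

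**Figure D4:**
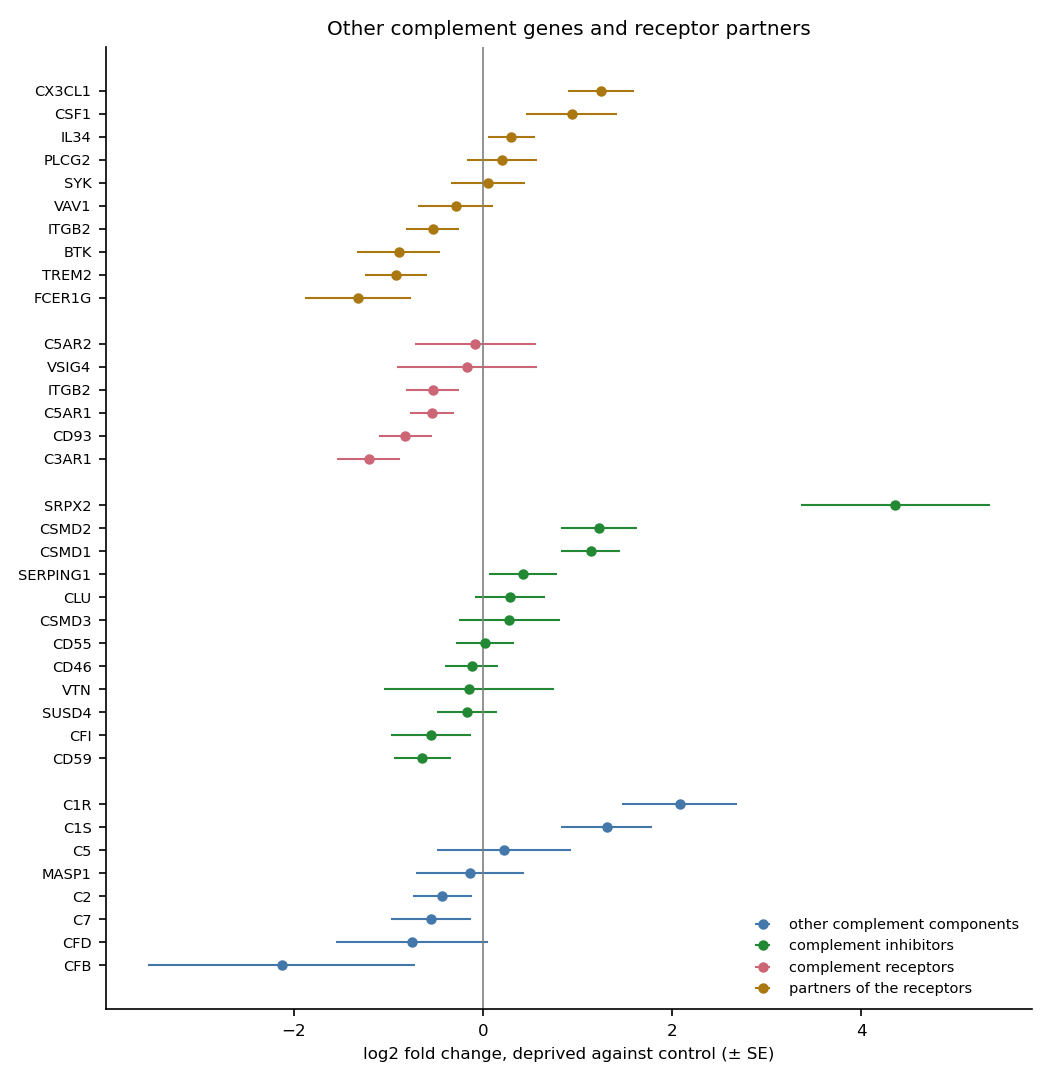
Log2 fold change, deprived against control, with bars of 1 standard error (horizontal axis) for tested genes of 4 lists, with 1 inhibitor not shown: other complement components, inhibitors, complement receptors and partners of the receptors (vertical axis). By the labels, all 6 complement receptors lie left of 0, C1R and C1S lie at 2.08 and 1.31 and CX3CL1 at 1.25, and the SRPX2 point rests on very few control reads.

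Phagocytic receptors outside complement were not lower as a set. Of 13 tested, 7 were higher and 6 lower, with a median of 0.12. MERTK, a receptor for apoptotic cells that astrocytes also use, had 37.7 to 42.1 CPM in the control libraries and 46.7 and 46.5 CPM in the deprived libraries. ADGRB1 (BAI1), a phagocytic receptor that neurons also express, was at 9.002 to 16.4 CPM in the control libraries against 61.2 and 38.8 CPM after deprivation (edgeR log2 fold change 1.89 ± 0.35 SE, adjusted p = 0.287). LRP1, TYRO3 and GAS6 had log2 fold changes of 0.63, 0.63 and -0.59. Without Control-317 3 of the 13 passed as higher, where 905 of 14009 genes passed as higher. Among the 3 were ADGRB1 and LRP1 (edgeR adjusted p of 0.0312 and 0.0416). For the exchanged division 2 of the 13 were lower, with a median of 0.33, ADGRB1 turned to -0.04 and GAS6 to 0.51.

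Genes of activated microglia and of lysosomes were on the lower side for 14 of 15 tested, with a median of -0.66. CD74, the invariant chain of antigen presentation, was at 35.0, 55.5 and 66.3 CPM in the control libraries against 12.9 and 26.2 CPM after deprivation (edgeR log2 fold change -1.42 ± 0.44 SE, adjusted p = 0.429). CTSS and CTSZ, lysosomal proteases, had log2 fold changes of -0.98 and -0.70, and APOE, a lipoprotein that astrocytes also make, one of -0.82. Without Control-317 4 of the 14 then tested passed as lower, against 3.68% of all genes. Among the 4 were CTSS and APOE (edgeR adjusted p of 0.0306 and 0.0410). Under the exchanged division 9 of the 15 were lower, with a median of -0.20, and CD74, CTSZ and APOE turned to 0.10, 0.27 and 0.26. The cytokine and chemokine genes TNF, CCL2 and CCL3 stayed at or below 0.560 CPM in every library, and NLRP3 was listed at 0 in all.

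Cells related to microglia were also measured. Markers of macrophages at the borders of the brain had a median log2 fold change of -0.08 over 5 tested genes, 2 higher and 3 lower. CD163 had one of 0.44, MRC1 one of -0.70, F13A1 one of 0.79 and LYVE1 one of -0.39, and their summed level ran from 118 to 143 CPM in the control libraries and was 127 and 109 CPM in the deprived ones. MRC1 passed without Control-317 (edgeR adjusted p = 0.0416). The median was -0.19 under the exchanged division, and CD163 and LYVE1 turned to -0.73 and 0.08. Few markers of blood cells reached a level that could be tested. A value of 0 can also be a gap in the estimates, since OLIG1, a gene of the oligodendrocyte lineage, was listed at 0 in every library beside OLIG2 at 56.3 to 172 CPM. Of the monocyte and neutrophil genes S100A8, S100A12 and FCN1 were listed at 0 in every library, only LYZ and CSF3R of 9 could be tested, and their summed level was 4.402 to 12.6 CPM in the control libraries and 2.95 and 7.10 CPM in the deprived libraries. LYZ, at up to 11.1 CPM, had a log2 fold change of -0.96 and CSF3R one of 0.02, with a median of -0.47, which was -0.23 under the exchanged division. Of 7 genes of T and NK cells only CD3E could be tested (log2 fold change -1.60, and -1.10 under the exchanged division). Of 6 red cell genes 4 were measured and none could be tested, with HBB at most at 4.97 CPM.

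Markers of some other brain cells differed between the groups in the direction of the 10 genes, and those of others differed little. Markers of endothelial and mural cells were on the lower side for 7 of 7 genes, with a median log2 fold change of -0.48 and a summed level of 343 to 376 CPM in controls and of 250.0 and 263 CPM after deprivation. CLDN5, a tight junction protein, had a log2 fold change of -0.94, and RGS5, PECAM1 and VWF had values of -0.60, -0.48 and -0.56. Oligodendrocyte markers were on the lower side for 8 of 8 genes, with a median of -0.77, among them MOG at -0.91, CNP at -0.75 and OPALIN at -0.79. Their summed level was 11210 to 14870 CPM in the control libraries, 6016 CPM in Deprivated-316 and 10200 CPM in Deprivated-326. Oligodendrocyte precursor markers had a median of -0.17 (4 of 5 lower), with OLIG2 at -0.97 and PDGFRA at -0.09. Astrocyte markers had one of -0.13 (5 of 7 lower), with GFAP at -0.75, SLC1A2 at 0.19 and SLC1A3 at 0.27. RGS5 passed without Control-317 (edgeR adjusted p = 0.0316). Medians under the exchanged division were -0.05 for endothelial and mural markers (4 of 7 lower), -0.24 for oligodendrocytes (5 of 8 lower), 0.49 for their precursors and 0.08 for astrocytes. There VWF turned to 0.04, MOG to 0.25, CNP to 0.18, OLIG2 to 0.39, PDGFRA to 0.16 and SLC1A3 to -0.57.

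Neuronal markers went in both directions, by the kind of neuron. Of 6 pan-neuronal markers 5 were higher, with a median log2 fold change of 1.10. Their summed level was 1565, 3993 and 1536 CPM in the control libraries and 3394 and 3520 CPM after deprivation. The sum was highest in Control-317, where NEFL alone held 1952 CPM, against 836 and 1190 CPM in the deprived libraries. The mean log2 CPM of the 6 markers was 6.39, 7.14 and 6.59 in the control libraries and 7.95 and 7.72 after deprivation. SNAP25, ELAVL4, SYT1 and RBFOX3 had log2 fold changes of 1.22, 1.23, 0.98 and 1.68, and NEFL one of -0.16. Without Control-317 4 of the 6 passed as higher, where 905 of 14009 genes passed as higher. Among the 4 were SNAP25, ELAVL4 and SYT1 (edgeR adjusted p of 0.0264, 0.0180 and 0.0145). Under the exchanged division the median was 0.59, RBFOX3 turned to -1.05 and NEFL to 1.05. Markers of cortical and hippocampal excitatory neurons, which the dLGN should lack, had a summed level of 35.9 to 188 CPM in controls and of 505 and 265 CPM after deprivation. Most of the control sum was NRGN, at 108, 31.5 and 181 CPM, against 138.5 and 86.3 CPM after deprivation (log2 fold change 0.07). The mean log2 CPM of these markers was 1.27, -0.18 and 1.07 in the control libraries and 5.87 and 4.67 after deprivation. Their median log2 fold change was 5.11, TBR1 among them at 5.74, and TBR1 passed without Control-317 (edgeR adjusted p = 0.0166). Under the exchanged division the direction turned, with 7 of 7 lower, a median of -0.54, TBR1 at -0.44 and NRGN at -1.28. Markers of striatal neurons, also foreign to the dLGN, had a summed level of 2589 and 2414 CPM in Control-307 and Control-331, 156 CPM in Control-317 and 807 and 596 CPM in the deprived libraries. All 8 were on the lower side, with a median of -1.34, and of -2.51 under the exchanged division. When Control-317 was left out the median was -1.88, and 7 of the 8 were called as lower, against 3.68% of all genes. ADORA2A and PENK were among the 7 (edgeR adjusted p of 0.0160 and 0.0145). Markers of thalamic relay neurons were highest in Control-317, with a summed level of 1504 CPM, against 167 and 262 CPM in the other control libraries and 334 and 846 CPM in the deprived libraries. Their median of -0.22, with 5 of 9 lower, turned to 1.49 without Control-317 and to 1.68 under the exchanged division. The part of this difference in tissue makeup in the lower levels of the 10 genes was not tested. Control-317, whose striatal and cortical markers were lowest, had a mean of 5.29 log2 CPM over the 10 genes, between the other control libraries and the deprived ones.

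**Figure D5:**
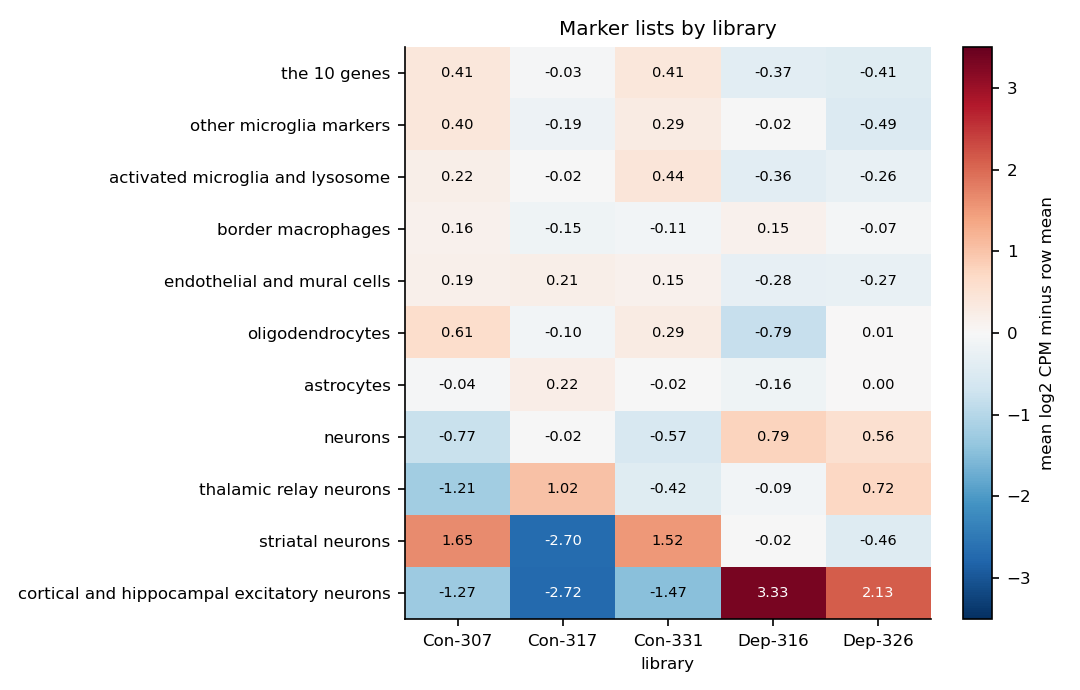
Mean log2 CPM of the 10 genes and of 10 marker lists in the 5 libraries, each row shown as the difference from its own mean over the libraries (colour and printed value). The 10 genes are highest in Control-307 and Control-331 and lowest in both deprived libraries, and the rows for striatal and for cortical and hippocampal neurons span far wider ranges.

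The genes with the library profile nearest to the mean of the 10 genes were on none of the other lists. Likeness was the root mean square difference of centred log2 CPM over the 5 libraries, among 13102 genes with a mean of at least 1 log2 CPM, and no test applies to it. The nearest 10 were ALG5, TMEM186, PRTFDC1, FHIT, ABI3, P2RY1, ANAPC16, LOC102117493, SDHB and RPSA, at distances of 0.039 to 0.055. ABI3, an actin regulator expressed by microglia, was at 7.55, 5.84 and 8.32 CPM in the control libraries against 4.69 and 4.37 CPM after deprivation. P2RY1, a nucleotide receptor, was at 45.8, 35.2 and 46.8 CPM and at 25.1 and 26.6 CPM in the same order. The median distance was 0.38 for the other microglia markers, 0.30 for complement receptors and 0.27 for endothelial and mural markers, against 0.49 over all genes compared and 1.18 for pan-neuronal markers. It was 0.47 for genes of activated microglia and lysosomes, 0.47 for border macrophages and 0.41 for oligodendrocytes. Complement inhibitors had a median distance of 0.53 and other complement components one of 0.9. Of the 10 genes themselves, C3 and ITGAM lay nearest to the mean of the rest (0.21 each) and C1QA farthest (0.55).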

How the data were processed

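The authors filtered reads with fastp 0.18.0, aligned them to the Macaca_fascicularis_5.0 assembly (HISAT2 by the methods, while the deposited notes also list Bowtie2 2.2.8) and quantified transcripts with StringTie 1.3.4. The deposited values are estimated counts and FPKM per transcript, with 1 library per animal. Estimated counts were summed per symbol, rounded and tested with edgeR 4.0.16 (R 4.3.3), by the quasi-likelihood test with TMM normalization, edgeR's filter on low counts and Benjamini-Hochberg adjustment over all genes (threshold 0.05). Standard errors are the fold change divided by the root of F. Log2 CPM used a prior count of 2. Alternatives were DESeq2 1.42.0, the exact test of edgeR, limma 3.58.1 fitted to log2 FPKM with pseudocounts of 0.1 and 1, other scalings and filters, side as a covariate, each library left out, and the division of the printed means, with means taken as equal at a difference of at most 0.01 or a relative 0.001. Each test was tested on simulated data. P-values set the group difference against the spread between these animals, estimated with help from all genes. That spread also holds any difference in the tissue taken. The 10 genes and the 21 lists were chosen with earlier results of these data known. Up to 4 tested genes per list with the smallest p were named, and genes named beyond these were chosen after their values were seen. Neighbouring and overlapping genes come from the RefSeq annotation of T2T-MFA8v1.1, another assembly, so no coordinates are given, and 12 of 20 transcript IDs matched there. Results of a few listed genes are not reported here.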

Additional observations from a re-analysis of the deposited data

How the results depend on the processing

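The count of genes passing edgeR's quasi-likelihood test, 0 of 14317 with all libraries (1397 at an unadjusted p under 0.05), was 224 in the exact test, 328 in DESeq2, 1 in limma on log2(FPKM + 1) and 777 with side as a covariate, and ran from 0 to 1420 with a library left out, the highest without Control-317. Of the 10 genes, 0 passed in any of these except without Control-317, where 3 did (range 0 to 3). Their median log2 fold change of -0.70 ran from -0.81 to -0.51 with a library left out and was -0.35 with side as a covariate and -0.32 under the division of the printed means. Single genes turned in sign 5 times among 160 values under alternatives. These were P2RY12 (0.41) and AIF1 (0.20) with side as a covariate, and CSF1R (0.08), CX3CR1 (0.01) and TYROBP (0.09) under the division of the printed means. The cause was not tested. Transcripts passing numbered 0 with all libraries (2145 at an unadjusted p under 0.05), 0 with any library left out and 434 in the exact test. No paired analysis was possible because the numbers in the titles name different animals in each group. Where 1 deprived library was left out, the other was assumed to vary like the control libraries.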

Other observations

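Proteins with a C1q domain that neurons secrete carry names like those of the C1q chains and went in both directions. C1QL3, a synaptic organiser, was at 1.35, 27.6 and 3.64 CPM in the control libraries (in the order given above), against 77.7 and 66.5 CPM after deprivation (edgeR log2 fold change 2.72 ± 1.16 SE, adjusted p = 0.535). C1QL2 was at 1.12 to 1.82 CPM in the control libraries against 14.0 and 8.74 CPM after deprivation (log2 fold change 3.02, edgeR adjusted p = 0.249). CBLN4, a cerebellin, had a log2 fold change of 1.5 and C1QL1, which lay lower as the C1q chains did, one of -0.91. CBLN1 had one of -0.52, with overlapping groups. Without Control-317 C1QL2, C1QL3 and CBLN4 passed (edgeR adjusted p of 0.0264, 0.0160 and 0.0347). Under the exchanged division C1QL2 turned to -0.21 and C1QL1 to 0.20. Of 6 tested members of this list 4 were higher, with a median of 0.84, which was 0.71 under the exchanged division, and none passed with all 5 libraries.

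Of the immediate early and stress genes 7 of 8 tested were on the higher side, with a median log2 fold change of 1.16. JUN had one of 1.13, FOSB one of 2.58, FOS one of 1.66 and EGR1 one of 1.62, and ATF3 lay on the lower side at -1.83. Without Control-317 JUN, FOSB and EGR1 passed (edgeR adjusted p of 0.0340, 0.0455 and 0.0380). Under the exchanged division the direction turned, with 6 of 8 lower and a median of -0.34, and JUN, FOS and EGR1 were at -0.10, -0.14 and -0.57.

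SALL1, a transcription factor of microglia, was at 77.6, 73.2 and 75.3 CPM in the control libraries, at 56.6 CPM in Deprivated-316 and at 0 in Deprivated-326. Its log2 fold change was -1.41 ± 1.60 SE (edgeR adjusted p = 0.818). As for OLIG1, the value of 0 can be a gap in the estimates, which was not tested.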
